A study of Mus musculus with 18 samples.

Results

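The 35 genes described here carry out mitosis, the division of duplicated chromosomes between daughter cells. They were taken by name from the table of 24498 genes for their known roles, and all 35 were found. The list was made with earlier results of these data known, so its shares beside those of all genes are a description. All 35 also passed the minimum level for testing, a normalised read count of at least 10 in at least 3 libraries, which left 14711 genes. The list holds 6 cyclins and kinases of mitotic entry, 4 spindle assembly factors, 4 subunits of the chromosomal passenger complex and 5 checkpoint and anaphase-promoting complex genes. It further holds 6 centromere and kinetochore genes, 5 kinesin motors, 3 genes of the spindle midzone and cytokinesis, and 2 chromosome genes, Top2a and Mki67.

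RNA came from mouse embryos at embryonic day 7.5, the stage of gastrulation, in which the transcription factor FoxA2 marks the node and notochord and the endoderm. Every embryo was homozygous for FoxA2 fused to the red fluorescent protein tagRFP, and in ΔHx embryos the fused protein also lacked an alpha helix of 10 amino acids, while WT embryos carried the fused protein with its full sequence. About 10 embryos were pooled for a sort, on a mixed C57Bl6/J and CD-1 background, unsexed, with the extra-embryonic part cut away, and cells were dissociated with trypsin and sorted on tagRFP. The High gate held cells brighter than those of heterozygous embryos, the Mid gate cells up to the heterozygous maximum, and the Neg gate cells with no tagRFP above the background of untagged embryos. The 6 groups are therefore ΔHx High, WT High, ΔHx Mid, WT Mid, ΔHx Neg and WT Neg, with 3 libraries each, 18 in all. The labels call the 3 libraries of a group biological replicates.

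Libraries held 12302196 to 17194136 reads in genes, of which Rn45s, a ribosomal RNA precursor, took 23.7% to 44.0%. The lowest value of any member in any library was a normalised read count of 349, for Cdc25c. The gates matched their labels: Foxa2 had a normalised read count of 1848 to 2385 in ΔHx High and 1556 to 2483 in WT High, 547 to 1229 in ΔHx Mid and 621 to 871 in WT Mid. Its Neg counts were 43.4 to 62.5 in ΔHx and 20.3 to 40.6 in WT. These counts include the deleted form, so they check the gate and not the deletion. A pair of libraries stood apart. Replicate 3 of ΔHx High had the fewest genes with a read, 15649 against 16016 to 17917 elsewhere, and replicate 1 of WT Mid had a summed count of 234659 over 10 parietal endoderm markers, against 7393 to 63118 elsewhere. The member calls lost without both are named with the comparisons between gates.

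Entry into mitosis is driven by Cdk1 bound to cyclin A or cyclin B, with Plk1 and the Aurora kinases acting beside it. The spindle then attaches to kinetochores built on Cenpa-containing centromeres, the checkpoint kinases hold the cell until attachment is complete, and Cdc20 with the anaphase-promoting complex, supplied with ubiquitin by Ube2c, starts the destruction of cyclins and the separation of chromatids. Most of these genes are transcribed late in the cell cycle and are silent in resting cells, so their RNA in a population depends on the share of its cells that are dividing. Embryonic cells at gastrulation are known for very fast division, while the mouse node, the pit that forms at the front of the primitive streak, is known for slow cycling and for cells that each bear a cilium.

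On the authors' scaling most mitosis genes had their highest mean in the Neg gate. The group with the highest mean was WT Neg for 19 members and ΔHx Neg for 11, while WT High held the highest mean of 3 and ΔHx High and ΔHx Mid of 1 each. The lowest mean lay in ΔHx Mid for 20 members, ΔHx High for 7 and WT Mid for 5, with 1 each in WT High, ΔHx Neg and WT Neg. These orders were not counted over all tested genes, so they describe the 35 genes only. How far High lay below Neg depended on the scaling, as given with that comparison below. The summed normalised read count of the 35 genes averaged 72122 ± 8863 in ΔHx High and 77136 ± 7811 in WT High, 66429 ± 2821 in ΔHx Mid and 68781 ± 8691 in WT Mid, and 88274 ± 2450 in ΔHx Neg and 89482 ± 4625 in WT Neg (SD, n = 3 each). In bulk RNA of sorted cells, fewer dividing cells and less of these transcripts per cell cannot be told apart. Every gene was nonetheless abundant in every gate, and no member was near 0 in any library.

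**Figure D1:**
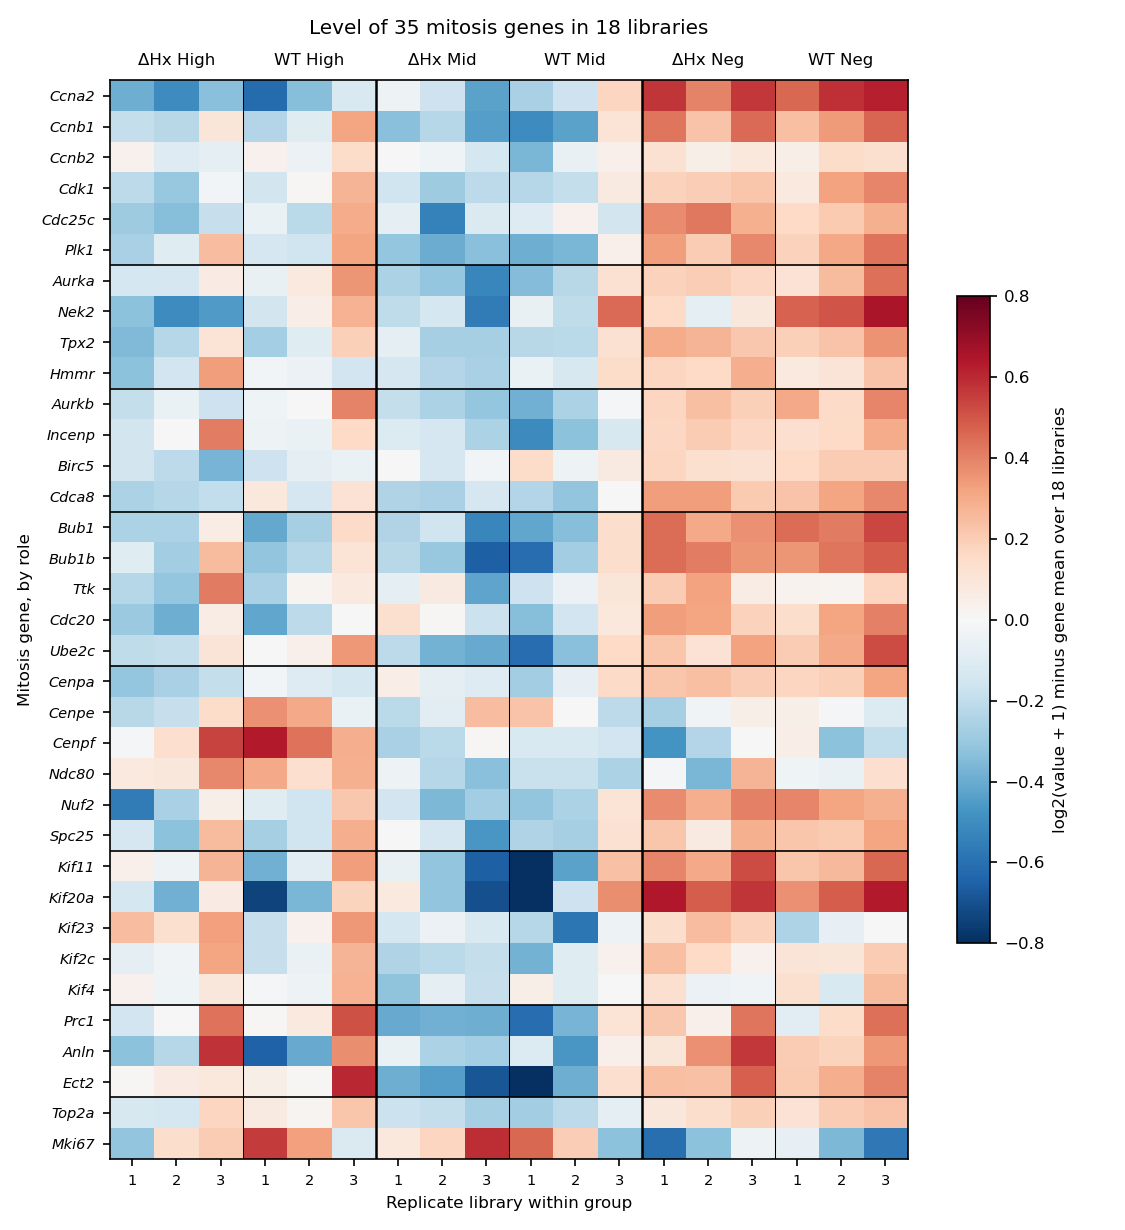
Level of each of the 35 mitosis genes (rows, ordered by role, with lines between roles) in each of the 18 libraries (columns, 3 per group), as log2(normalised read count + 1) minus the gene's mean over all libraries. Red is above and blue below that mean. On the authors' scaling most rows are red in the 6 Neg libraries, with exceptions that include Mki67, Cenpf, Cenpe and Ndc80.

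Genes were tested on log2(normalised read count + 1) and called at an adjusted p under 0.05, adjusted over all 14711 genes. In Mid against Neg, 22 members fell and 1 rose in ΔHx cells, where 16.5% of all tested genes fell and 17.9% rose. In WT cells 20 members fell and 0 rose, against 15.4% and 17.4% of all genes. The median log2 change of the members was -0.42 in ΔHx and -0.42 in WT, where the median of all genes was 0.00 in both. Libraries of the compared gates did not overlap for 30 lower and 1 higher members in ΔHx (25.3% of all genes lower and 25.3% higher) and for 24 lower and 0 higher in WT (22.5% and 22.1%). With quantile normalisation 17 members fell in ΔHx and 18 in WT, with medians of -0.32 and -0.34, beside -0.08 and -0.10 for all genes. The Mid falls lost with it were those of Hmmr, Incenp, Cenpa, Kif2c and Top2a in ΔHx, and of Tpx2 and Cenpa in WT. Of all tested genes 2533 fell in ΔHx and 2591 in WT with it, against 2421 and 2267 in the main fit. In WT 10 members fell without Mid replicate 1, 12 without Neg replicate 3 and 13 without both libraries that stood apart. The falls among all tested genes also dropped, from 2267 in the main fit to 1678, 1596 and 1874 in these fits. The WT Mid calls lost without both were those of Aurka, Nek2, Tpx2, Cenpa, Kif11, Kif20a and Ect2.

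In High against Neg, 15 members fell and 1 rose in ΔHx cells, against 21.1% and 21.5% of all tested genes. In WT cells 10 fell and 2 rose, against 21.8% and 22.6%, so the share of members that fell in WT, 28.6%, was close to the share of all genes. The median log2 change was -0.32 in ΔHx and -0.21 in WT, beside 0.01 and 0.02 for all genes, but with quantile normalisation it was -0.14 in ΔHx and -0.04 in WT, beside -0.08 and -0.09 for all genes, so that in WT the members' median lay above that of all genes. Under that normalisation 6 members fell and 1 rose in ΔHx, where 3327 of all tested genes fell and 2628 rose. In WT 3 members fell and 4 rose, where 3550 of all tested genes fell and 2810 rose under that normalisation. The falls lost with it were those of Ccnb1, Cdk1, Aurkb, Bub1, Bub1b, Birc5, Cdc20, Tpx2 and Kif20a in ΔHx, and of Tpx2, Birc5, Cdca8, Bub1b, Cdc20, Cenpa and Kif20a in WT. Non-overlapping libraries were found for 20 lower and 0 higher members in ΔHx (27.1% and 27.6% of all genes), and for 12 lower and 1 higher in WT (27.0% and 27.7%). Leaving out both libraries that stood apart gave 23 falls and 0 rises in ΔHx, where the rise of Cenpf was lost. Falls among all tested genes numbered 2964 in that ΔHx fit, against 3103 in the main fit. In WT 5 members fell without Neg replicate 3 and 17 without High replicate 3. All tested genes had 2681 and 3103 falls in these WT fits, against 3201 in the main fit.

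In High against Mid, 2 members rose and 0 fell in ΔHx cells, against 13.3% and 12.3% of all tested genes. In WT cells 6 rose and 0 fell, against 12.1% and 12.4%. The median log2 change of the members was 0.16 in both genotypes, beside -0.01 for all genes. Non-overlap was seen for 12 higher and 2 lower members in ΔHx (19.7% and 19.4% of all genes) and for 4 higher and 1 lower in WT (17.9% and 17.5%). These calls depended on the scaling and on single libraries: there were 9 and 15 rises with quantile normalisation in ΔHx and WT, 5 and 12 with equal totals, and 1 and 3 without both libraries that stood apart. Rises among all tested genes numbered 1959 in ΔHx and 1774 in WT in the main fit. They numbered 1976 and 1817 with quantile normalisation, 2158 and 2169 with equal totals, and 1855 and 1538 without both libraries. The member rises lost without both were that of Ndc80 in ΔHx and those of Aurkb, Incenp and Ect2 in WT. The comparisons of High and of Mid with Neg share their Neg libraries, so the falls in both are not independent of each other.

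**Figure D2:**
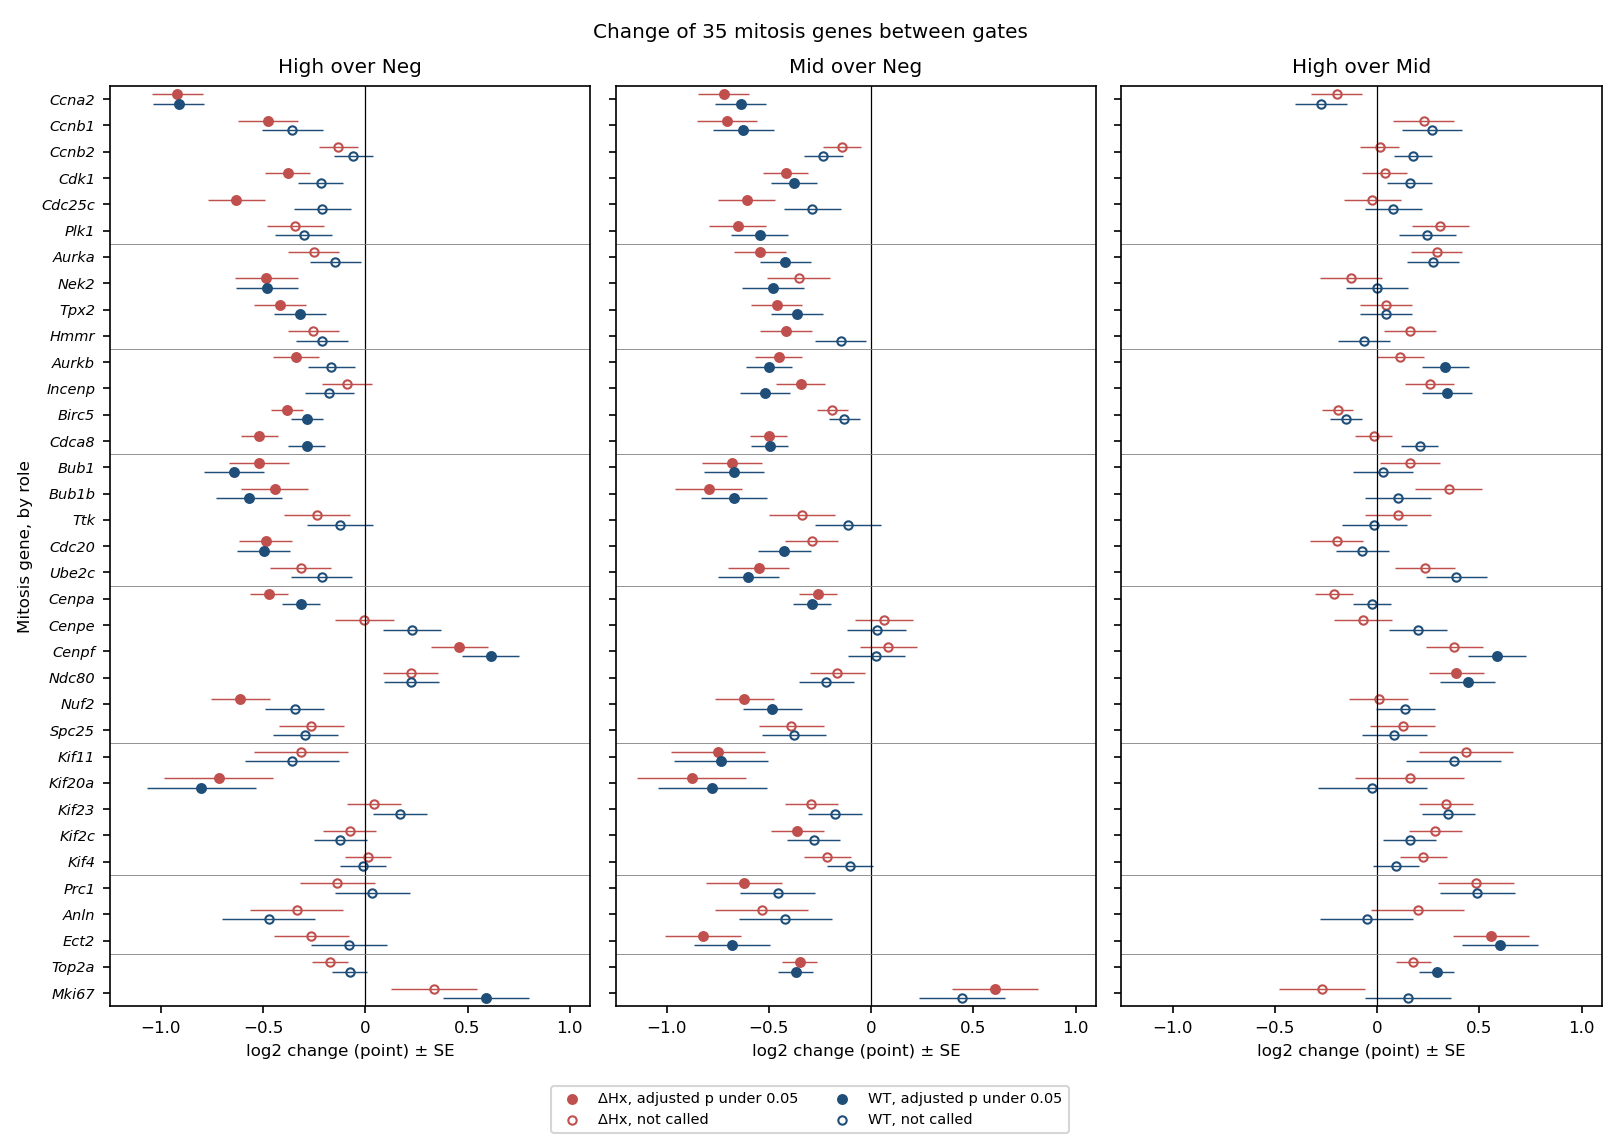
The log2 change (x axis, point, with its standard error) of each of the 35 mitosis genes (rows, by role) for High over Neg, Mid over Neg and High over Mid, in ΔHx and in WT cells; filled points passed an adjusted p of 0.05. In the Mid over Neg panel 22 ΔHx and 20 WT members passed below 0, whereas the smaller displacement in the High over Neg panel depends on the scaling, with a WT median of -0.04 under quantile normalisation.

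The promoters of 5 members, in each of 5 roles the one with the highest count among those with a promoter in the RefSeq table, are shown because late cell-cycle genes are known to share short promoter elements, the CCAAT box bound by NF-Y and the cell-cycle homology element, bound by the DREAM and MuvB complexes. Each line runs from 250 bases before to 50 after the RefSeq start on build GRCm38.p6, 5′ to 3′ on the strand of the gene, with capitals for matches, read on either strand, to the CCAAT box and to the homology element in its usual form TTTGAA and its rarer form TTCGAA. The windows are Cdk1 at chr10:69352863-69353162 on the minus strand, Cdc20 at chr4:118437294-118437593 on the minus strand, Birc5 at chr11:117848987-117849286 on the plus strand, Cenpf at chr1:189688037-189688336 on the minus strand and Top2a at chr11:99024140-99024439 on the minus strand.
Cdk1: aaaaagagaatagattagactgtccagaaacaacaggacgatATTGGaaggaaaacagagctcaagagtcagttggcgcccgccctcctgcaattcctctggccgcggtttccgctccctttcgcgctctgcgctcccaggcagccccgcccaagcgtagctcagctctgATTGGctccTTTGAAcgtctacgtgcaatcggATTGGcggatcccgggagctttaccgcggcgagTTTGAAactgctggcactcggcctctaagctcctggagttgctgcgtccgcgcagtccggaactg
Cdc20: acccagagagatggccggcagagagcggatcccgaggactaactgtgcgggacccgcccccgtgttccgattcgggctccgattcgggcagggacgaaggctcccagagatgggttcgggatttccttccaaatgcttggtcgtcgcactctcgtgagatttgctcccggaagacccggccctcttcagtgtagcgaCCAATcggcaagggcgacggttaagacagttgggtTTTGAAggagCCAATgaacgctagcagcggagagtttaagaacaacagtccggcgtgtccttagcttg
Birc5: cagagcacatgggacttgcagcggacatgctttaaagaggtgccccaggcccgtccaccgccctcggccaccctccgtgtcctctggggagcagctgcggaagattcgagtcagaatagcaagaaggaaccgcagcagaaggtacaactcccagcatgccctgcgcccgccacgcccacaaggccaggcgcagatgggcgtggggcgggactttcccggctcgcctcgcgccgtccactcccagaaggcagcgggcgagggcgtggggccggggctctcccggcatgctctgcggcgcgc
Cenpf: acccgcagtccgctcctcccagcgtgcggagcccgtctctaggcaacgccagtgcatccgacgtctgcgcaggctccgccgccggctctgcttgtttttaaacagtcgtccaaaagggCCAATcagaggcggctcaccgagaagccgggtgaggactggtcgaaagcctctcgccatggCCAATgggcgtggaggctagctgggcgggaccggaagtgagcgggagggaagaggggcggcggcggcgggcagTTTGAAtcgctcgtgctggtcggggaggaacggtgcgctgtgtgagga
Top2a: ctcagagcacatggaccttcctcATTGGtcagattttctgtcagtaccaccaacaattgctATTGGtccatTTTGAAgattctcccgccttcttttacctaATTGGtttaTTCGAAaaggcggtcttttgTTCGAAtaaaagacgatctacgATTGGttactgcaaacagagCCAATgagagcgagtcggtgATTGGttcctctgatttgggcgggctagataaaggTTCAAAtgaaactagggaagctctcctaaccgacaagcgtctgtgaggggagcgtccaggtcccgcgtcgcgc

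A promoter was found for 29 of the 35 members; the others are Aurkb, Cdc25c, Tpx2, Ccna2, Incenp and Kif20a. Searched on both strands, CCAAT stood in 24 of these 29 windows (82.8%), against 37.9% of 27025 promoters of the same length, and at least 2 matches stood in 18 (62.1%), against 12.2%. TTTGAA was present in 23 windows (79.3%, against 18.1% of all) and TTCGAA in 3 (10.3%, against 1.57%). Both kinds of element occurred in 21 member windows (72.4%), against 7.70% of all promoters. A CCAAT match and a match to either other string can share 1 end letter at most. Of 59 CCAAT matches in the members 41 lay within 120 bases upstream of the start, and of 29 TTTGAA matches 22 lay within 50 bases of it. Positions were not counted over all promoters, so this placement is not shown to be particular to the members. Birc5 and Nuf2 had no match to any of the 3 strings, and of these Birc5 fell in High and Nuf2 in Mid in both genotypes. Cenpf, one of the few members that rose in High, had 2 CCAAT matches and 1 TTTGAA, as Cdc20 did, which fell. A match in these letters is a description of the window and was not measured as binding here.

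Among the entry kinases and cyclins, Ccna2 changed most. Ccna2 (chr3:36564865-36572150, minus strand, mm10) encodes cyclin A2, which pairs with Cdk2 in S phase and Cdk1 at mitotic entry. In ΔHx cells Ccna2 had normalised read counts of 2947, 2731 and 3073 in High libraries, 3771, 3448 and 2872 in Mid libraries and 5742, 5091 and 5737 in Neg libraries. WT cells had Ccna2 counts of 2526, 3063 and 3551 in High libraries, 3232, 3454 and 4360 in Mid libraries and 5316, 5803 and 5954 in Neg libraries. All 6 Neg libraries exceeded all 12 others, and the Mid and High libraries overlapped in both genotypes. In High against Neg Ccna2 fell by 0.92 on the log2 scale in ΔHx and by 0.91 in WT, the largest fall of any member there (SE 0.13, adjusted p = 8.68e-06 and 8.47e-06). In Mid against Neg the changes were -0.72 ± 0.13, adjusted p = 0.000231 in ΔHx and -0.64 ± 0.13, adjusted p = 0.000694 in WT. These Ccna2 calls held under all 17 alternatives in each of the 4 comparisons.

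Cdk1 (chr10:69335146-69352938, minus strand), the kinase that these cyclins activate, had counts of 2870, 2690 and 3267 in High libraries, 2974, 2731 and 2872 in Mid libraries and 3781, 3802 and 3867 in Neg libraries in ΔHx cells. Its WT counts were 3001, 3335 and 4014 in High libraries, 2837, 2908 and 3495 in Mid libraries and 3498, 4154 and 4356 in Neg libraries. The ΔHx Neg libraries lay above every ΔHx High and Mid library, while WT High overlapped WT Neg. Cdk1 fell in ΔHx High (-0.38 ± 0.11, adjusted p = 0.00911), in ΔHx Mid (-0.42 ± 0.11, adjusted p = 0.00678) and in WT Mid (-0.38 ± 0.11, adjusted p = 0.0127). The WT Mid call was lost without WT Mid replicate 1 or 2 or WT Neg replicate 2 or 3, with an adjusted p of up to 0.0705. In WT High against Neg the Cdk1 change was -0.22 ± 0.11, adjusted p = 0.118.

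Of the other entry genes, Ccnb1, the main mitotic cyclin B, averaged 2320 ± 169 in ΔHx Mid and 2456 ± 597 in WT Mid, against 3782 ± 318 in ΔHx Neg and 3727 ± 290 in WT Neg (SD, n = 3 each), and fell in both genotypes in Mid (log2 -0.70 and -0.63) and in ΔHx High (-0.48). The ΔHx High call for Ccnb1 was lost without ΔHx High replicate 1 or 2 or ΔHx Neg replicate 3, with an adjusted p of up to 0.0576. Ccnb2, its close relative, ranged only from 1617 to 2312 over all 18 libraries and was called in no comparison. Plk1, the kinase that promotes entry, spindle formation and exit, fell in Mid by 0.65 in ΔHx and by 0.55 in WT. Cdc25c, a phosphatase that activates Cdk1, was the least abundant member per length and fell in ΔHx High and Mid: ΔHx High averaged 423 ± 24.0 against 655 ± 31.6 in ΔHx Neg (-0.63 ± 0.14, adjusted p = 0.00115), and WT High 518 ± 96.5 against 593 ± 25.4 in WT Neg (-0.21 ± 0.14, adjusted p = 0.237). The difference between these genotype effects did not pass the test over all genes (log2 -0.42, adjusted p = 0.998).

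Of the 4 spindle assembly genes 3 fell in Mid and 2 in High in each genotype. Tpx2 (chr2:152847964-152895321, plus strand), which activates Aurora A on the spindle, had ΔHx counts of 2025, 2205 and 2796 in High libraries, 2456, 2156 and 2148 in Mid libraries and 3180, 3118 and 3003 in Neg libraries. WT Tpx2 counts were 2146, 2416 and 2953 in High libraries, 2221, 2232 and 2818 in Mid libraries and 2959, 3027 and 3323 in Neg libraries. All 6 Neg libraries were above all 6 Mid libraries. Tpx2 was the member of this role that fell in all 4 comparisons with Neg, with log2 changes of -0.42 in ΔHx High, -0.32 in WT High, -0.46 in ΔHx Mid and -0.36 in WT Mid. The ΔHx High call was lost without ΔHx High replicate 1, with an adjusted p of up to 0.0707, and it was also lost with quantile normalisation. The WT High call (adjusted p = 0.0456) was kept in 7 of 17 alternatives, and was lost without WT High replicate 1 or 2 or WT Neg replicate 1, 2 or 3, with an adjusted p of up to 0.222. The WT Mid call was lost without WT Mid replicate 1 or 2 or WT Neg replicate 2 or 3, with an adjusted p of up to 0.119 and also without both libraries that stood apart.

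Aurka (chr2:172356190-172370535, minus strand), the Aurora A kinase of centrosomes and spindle poles, had counts of 1537, 1541 and 1775 in High libraries, 1421, 1367 and 1180 in Mid libraries and 1927, 1939 and 1904 in Neg libraries in ΔHx cells. In WT cells Aurka had counts of 1626, 1789 and 2164 in High libraries, 1332, 1453 and 1846 in Mid libraries and 1839, 2017 and 2303 in Neg libraries. The ΔHx gates separated fully between Mid and Neg, and the WT gates overlapped by a single Mid library, replicate 3. Aurka fell in Mid (-0.54 ± 0.13, adjusted p = 0.00256 in ΔHx and -0.42 ± 0.13, adjusted p = 0.0149 in WT) and passed no test in High. The WT Mid call was lost without WT Mid replicate 1 or 2 or WT Neg replicate 3, with an adjusted p of up to 0.0864. Hmmr, a microtubule-binding spindle protein, fell in ΔHx Mid (-0.42, against a value of -0.15 in WT Mid that did not pass), and Nek2, a kinase that splits centrosomes, fell in High in both genotypes (-0.48 in ΔHx and -0.48 in WT) and in WT Mid (-0.48). The Hmmr call was lost without ΔHx Mid replicate 3 or ΔHx Neg replicate 3, with an adjusted p of up to 0.06. The Nek2 call in ΔHx High was lost without ΔHx High replicate 2 or ΔHx Neg replicate 1, with an adjusted p of up to 0.0606. In WT High it was lost without WT High replicate 1 or WT Neg replicate 3, with an adjusted p of up to 0.0827. In WT Mid it was lost without WT Mid replicate 1 or 2 or WT Neg replicate 3, with an adjusted p of up to 0.119.

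The chromosomal passenger complex, which corrects faulty kinetochore attachments and then guides cytokinesis, had 3 of its 4 members fall in Mid in each genotype, 3 in ΔHx High and 2 in WT High. Birc5 (chr11:117849251-117855743, plus strand), its subunit survivin, had counts of 2390, 2285 and 2048 in High libraries, 2655, 2414 and 2609 in Mid libraries and 2982, 2888 and 2882 in Neg libraries in ΔHx cells. WT Birc5 values were 2362, 2523 and 2554 in High libraries, 2928, 2568 and 2785 in Mid libraries and 2957, 3051 and 3046 in Neg libraries. Like Ccna2, Birc5 was lowest in High, where every library lay below every Neg library in both genotypes. It fell in High (-0.38 ± 0.08, adjusted p = 0.000523 in ΔHx and -0.28 ± 0.08, adjusted p = 0.00565 in WT), while in Mid the values were -0.19 and -0.13. Both High calls were lost with quantile normalisation, and the WT High call also with equal totals.

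Cdca8 (chr4:124918465-124939311, minus strand), the subunit borealin that docks survivin, had counts of 1825, 1851 and 1893 in High libraries, 1840, 1819 and 1981 in Mid libraries and 2739, 2735 and 2509 in Neg libraries in ΔHx cells. WT Cdca8 values were 2309, 1983 and 2351 in High libraries, 1845, 1742 and 2167 in Mid libraries and 2546, 2704 and 2838 in Neg libraries. Neg libraries were above all High and Mid libraries in both genotypes. Cdca8 fell in all 4 comparisons, by 0.52 in ΔHx High, by 0.29 in WT High, by 0.50 in ΔHx Mid and by 0.50 in WT Mid. The fall in WT High was lost without WT High replicate 2 or WT Neg replicate 3, with an adjusted p of up to 0.0956. Aurkb, the kinase of the complex, and Incenp, its scaffold, fell in Mid in both genotypes (-0.45 in ΔHx and -0.50 in WT for Aurkb, -0.35 and -0.52 for Incenp). Both were also higher in WT High than in WT Mid (0.33 ± 0.11, adjusted p = 0.0375 for Aurkb and 0.34 ± 0.12, adjusted p = 0.0444 for Incenp). The Aurkb call there was lost without WT High replicate 3 or WT Mid replicate 1 or 2, with an adjusted p of up to 0.219. For Incenp it was lost without WT High replicate 1, 2 or 3 or WT Mid replicate 1 or 2, with an adjusted p of up to 0.185. The Incenp fall in ΔHx Mid was lost without ΔHx Mid replicate 2 or 3 or ΔHx Neg replicate 1, 2 or 3, with an adjusted p of up to 0.11. Aurkb also fell in ΔHx High (adjusted p = 0.0214), a call kept in 12 of 17 alternatives. That call was lost without ΔHx High replicate 1 or 3 or ΔHx Neg replicate 2, with an adjusted p of up to 0.0677. It was also lost with quantile normalisation and with equal totals.

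**Figure D3:**
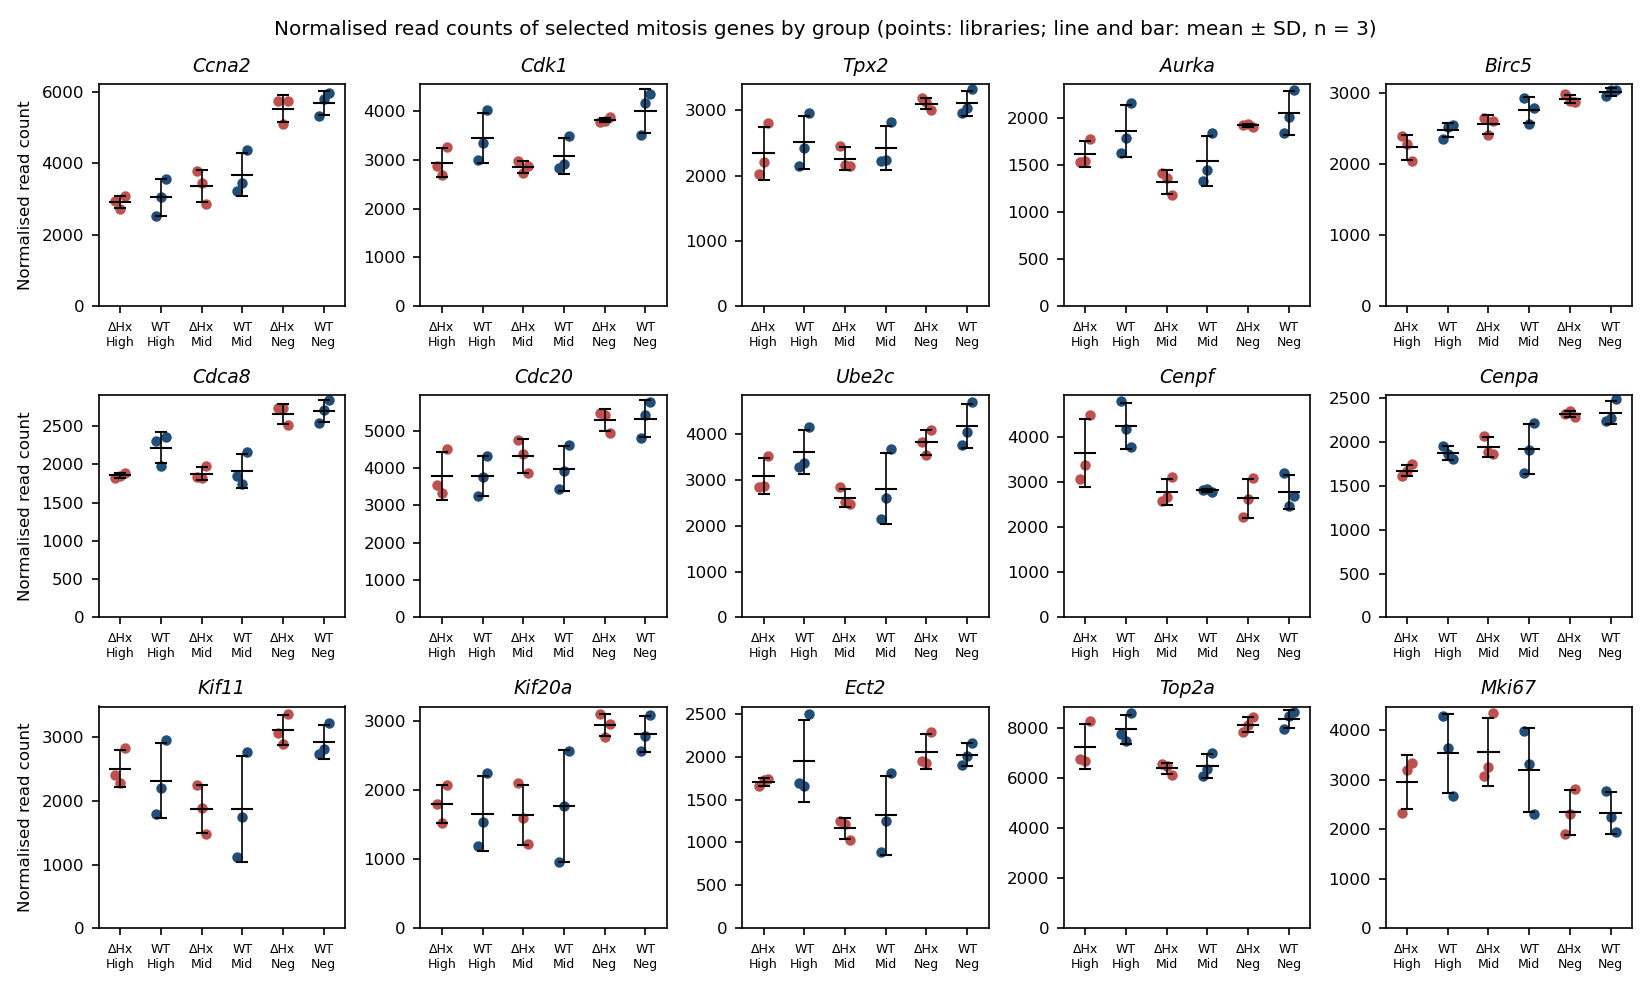
Normalised read counts (y axis, from 0) of 15 mitosis genes in the 6 groups; each point is a library, the line is the mean and the bar the SD of 3 libraries. Ccna2 averages 2917 in ΔHx High and 3046 in WT High, against 5523 in ΔHx Neg and 5691 in WT Neg, whereas Cenpf and Mki67 are not highest in Neg.

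Of the 5 checkpoint and anaphase-promoting complex genes, 3 fell in ΔHx High, 3 in WT High, 3 in ΔHx Mid and 4 in WT Mid. Cdc20 (chr4:118432901-118437352, minus strand), the activator of the complex and a checkpoint target, was the most abundant member per length, with 2362 normalised reads per kilobase of exon. ΔHx counts of Cdc20 were 3541, 3315 and 4520 in High libraries, 4748, 4364 and 3852 in Mid libraries and 5478, 5406 and 4945 in Neg libraries. WT counts of Cdc20 were 3258, 3758 and 4330 in High libraries, 3424, 3907 and 4613 in Mid libraries and 4796, 5409 and 5756 in Neg libraries. High lay below Neg without overlap in both genotypes, and ΔHx Mid lay nearer to Neg than ΔHx High did. Cdc20 fell in High (-0.49 ± 0.13, adjusted p = 0.00482 in ΔHx and -0.50 ± 0.13, adjusted p = 0.00395 in WT) and in WT Mid (-0.42 ± 0.13, adjusted p = 0.0161), where the call was lost without WT Mid replicate 1 or WT Neg replicate 2 or 3, with an adjusted p of up to 0.0876. Both High calls of Cdc20 were lost with quantile normalisation.

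Ube2c (chr2:164769898-164778822, plus strand), the ubiquitin-conjugating enzyme of the complex, had counts of 2856, 2874 and 3536 in High libraries, 2843, 2526 and 2481 in Mid libraries and 3837, 3557 and 4104 in Neg libraries in ΔHx cells. WT Ube2c counts were 3287, 3376 and 4171 in High libraries, 2155, 2608 and 3673 in Mid libraries and 3778, 4051 and 4717 in Neg libraries. It fell in Mid (-0.55 ± 0.15, adjusted p = 0.00774 in ΔHx and -0.60 ± 0.15, adjusted p = 0.00423 in WT) and passed no test in High. Bub1 and Bub1b, kinases of the spindle checkpoint, fell in all 4 comparisons with Neg. Bub1 averaged 2279 ± 294 in ΔHx High, 2258 ± 473 in WT High, 2041 ± 260 in ΔHx Mid and 2217 ± 488 in WT Mid, against 3257 ± 162 in ΔHx Neg and 3476 ± 146 in WT Neg. Its changes of -0.52, -0.64, -0.68 and -0.67, in that order, were exceeded in Mid by Bub1b in ΔHx (-0.79). The Bub1b call in ΔHx High was lost without ΔHx High replicate 1 or 2 or ΔHx Neg replicate 1, 2 or 3, with an adjusted p of up to 0.161. Ttk, the kinase that starts checkpoint signalling, was called in no comparison and had changes of -0.34 in ΔHx Mid and -0.11 in WT Mid.

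Centromere and kinetochore genes were divided, and 1 of the 6 rose against Neg. Cenpf (chr1:189640606-189688086, minus strand), a large protein of the nuclear matrix, the outer kinetochore and its corona, had counts of 3064, 3382 and 4488 in High libraries, 2574, 2658 and 3107 in Mid libraries and 2213, 2621 and 3086 in Neg libraries in ΔHx cells. WT Cenpf counts were 4788, 4169 and 3775 in High libraries, 2828, 2834 and 2776 in Mid libraries and 3193, 2459 and 2686 in Neg libraries. All WT High libraries were above all WT Neg and WT Mid libraries, while in ΔHx a Neg library, replicate 3, exceeded the lowest High library. Cenpf rose in High against Neg (0.46 ± 0.14, adjusted p = 0.012 in ΔHx and 0.61 ± 0.14, adjusted p = 0.00141 in WT), the largest rise of any member there, and in WT High against Mid (0.59 ± 0.14, adjusted p = 0.00408). The ΔHx call was lost without ΔHx High replicate 3 or ΔHx Neg replicate 1, with an adjusted p of up to 0.0904. Both WT calls held under all 17 alternatives.

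Cenpa (chr5:30666777-30674830, plus strand), the histone variant that marks centromeres, had counts of 1613, 1667 and 1748 in High libraries, 2074, 1890 and 1860 in Mid libraries and 2325, 2356 and 2287 in Neg libraries in ΔHx cells. WT Cenpa counts were 1961, 1861 and 1808 in High libraries, 1647, 1910 and 2217 in Mid libraries and 2244, 2279 and 2488 in Neg libraries. The direction was opposite to that of Cenpf, with each High library below each Neg library in both genotypes. Cenpa fell in High (-0.47 ± 0.09, adjusted p = 0.000445 in ΔHx and -0.32 ± 0.09, adjusted p = 0.00987 in WT) and in Mid (-0.26 and -0.29). The WT High call was lost without WT Neg replicate 3, with an adjusted p of up to 0.0524. In ΔHx Mid it was lost without ΔHx Mid replicate 2 or 3 or ΔHx Neg replicate 1, 2 or 3, with an adjusted p of up to 0.115. In WT Mid it was lost without WT Mid replicate 1 or 2 or WT Neg replicate 3, with an adjusted p of up to 0.144. Ndc80, Nuf2 and Spc25, make up most of the Ndc80 complex that holds microtubules at the kinetochore. Nuf2 fell in Mid in both genotypes (-0.62 in ΔHx and -0.48 in WT) and in ΔHx High (-0.61). The Nuf2 call in WT Mid was lost without WT Mid replicate 1 or 2, with an adjusted p of up to 0.0659. Spc25 passed no test, with -0.39 in ΔHx Mid and -0.38 in WT Mid. Ndc80 was higher in High than in Mid, with 1034 ± 128 in ΔHx High against 789 ± 81.5 in ΔHx Mid (0.39 ± 0.13, adjusted p = 0.0406) and 1070 ± 65.8 in WT High against 786 ± 24.3 in WT Mid (0.44 ± 0.13, adjusted p = 0.0204). The ΔHx call for Ndc80 was lost without ΔHx High replicate 3 or ΔHx Mid replicate 2 or 3, with an adjusted p of up to 0.175. In WT it was lost without WT High replicate 1 or 3 or WT Mid replicate 3, with an adjusted p of up to 0.0691. Cenpe, a kinetochore kinesin, was called in no comparison, with 0.00 in ΔHx High and 0.23 in WT High against Neg.

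Of the 5 kinesin motors 3 fell in ΔHx Mid, 2 in WT Mid and 1, Kif20a, in High in each genotype. Kif11 (chr19:37376403-37421859, plus strand), the motor that pushes spindle poles apart, had counts of 2409, 2277 and 2827 in High libraries, 2248, 1879 and 1485 in Mid libraries and 3065, 2888 and 3360 in Neg libraries in ΔHx cells. WT Kif11 counts were 1790, 2204 and 2948 in High libraries, 1114, 1739 and 2757 in Mid libraries and 2726, 2805 and 3218 in Neg libraries. The 3 WT Mid libraries spanned 1114 to 2757, so the highest overlapped WT Neg. Kif11 fell in Mid (-0.75 ± 0.23, adjusted p = 0.0168 in ΔHx and -0.73 ± 0.23, adjusted p = 0.019 in WT). The WT call was lost without WT Mid replicate 1 or WT Neg replicate 3, with an adjusted p of up to 0.138. The ΔHx call was lost without ΔHx Mid replicate 3 or ΔHx Neg replicate 3, with an adjusted p of up to 0.0901.

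Kif20a, a motor of the central spindle needed for cytokinesis, had counts of 1802, 1525 and 2076 in High libraries, 2098, 1598 and 1222 in Mid libraries and 3100, 2777 and 2952 in Neg libraries in ΔHx cells. WT Kif20a counts were 1192, 1545 and 2249 in High libraries, 955, 1772 and 2573 in Mid libraries and 2564, 2780 and 3082 in Neg libraries. All ΔHx Neg libraries exceeded all ΔHx High and Mid libraries, and in WT the Mid replicate 3 library exceeded the lowest Neg library. Kif20a fell in all 4 comparisons with the largest standard error of any member, 0.27, and in Mid its falls of 0.88 in ΔHx and 0.78 in WT were the largest among the 35 (adjusted p = 0.0158 and 0.0307). The High calls were kept in 9 of 17 alternatives in ΔHx and 13 of 17 in WT, and the Mid calls in 15 and 11. The ΔHx High call was lost without ΔHx High replicate 1 or 2 or ΔHx Neg replicate 1, 2 or 3, with an adjusted p of up to 0.126. In WT High it was lost without WT High replicate 1 or 2 or WT Neg replicate 3, with an adjusted p of up to 0.113. In ΔHx Mid it was lost without ΔHx Mid replicate 3 or ΔHx Neg replicate 1, with an adjusted p of up to 0.089. In WT Mid it was lost without WT Mid replicate 1 or WT Neg replicate 2 or 3, with an adjusted p of up to 0.218. Kif2c, which takes microtubules apart at centromeres, fell in ΔHx Mid (-0.36, against a value of -0.28 in WT Mid that did not pass), a call lost without ΔHx Mid replicate 1, 2 or 3 or ΔHx Neg replicate 1 or 2, with an adjusted p of up to 0.128. Kif23, a subunit of centralspindlin, and Kif4, a motor that binds chromosomes, passed no gate test, with changes in Mid of -0.29 in ΔHx and -0.18 in WT for Kif23, and -0.21 and -0.10 for Kif4.

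Among the cytokinesis genes Ect2 separated Mid from both other gates. Ect2 (chr3:27097222-27153878, minus strand), the exchange factor that turns on RhoA at the cleavage furrow, had counts of 1655, 1723 and 1744 in High libraries, 1255, 1210 and 1024 in Mid libraries and 1946, 1931 and 2292 in Neg libraries in ΔHx cells. WT Ect2 counts were 1695, 1653 and 2501 in High libraries, 886, 1252 and 1804 in Mid libraries and 1901, 2008 and 2164 in Neg libraries. In ΔHx no Mid library reached any High or Neg library, and in WT the Mid replicate 3 library overlapped High only. Ect2 fell in Mid against Neg (-0.82 ± 0.19, adjusted p = 0.00211 in ΔHx and -0.68 ± 0.19, adjusted p = 0.00812 in WT) and rose in High against Mid (0.56 ± 0.19, adjusted p = 0.0323 and 0.60 ± 0.19, adjusted p = 0.022). The WT fall was lost without WT Mid replicate 1, with an adjusted p of up to 0.0593. The WT rise was lost without WT High replicate 3 or WT Mid replicate 1 or 2, with an adjusted p of up to 0.144. The ΔHx rise was lost without ΔHx High replicate 1, 2 or 3 or ΔHx Mid replicate 2 or 3, with an adjusted p of up to 0.125. Prc1, which bundles the midzone microtubules, fell in ΔHx Mid (-0.62, against a value of -0.46 in WT Mid that did not pass), a call lost without ΔHx Neg replicate 3, with an adjusted p of up to 0.0666, and Anln, the actin-binding scaffold of the furrow, was called in no comparison, with -0.54 in ΔHx Mid and -0.42 in WT Mid.

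The chromosome genes went apart. Top2a (chr11:98992943-99024189, minus strand), the topoisomerase that untangles sister chromatids, had the highest count of all members, with 6764, 6705 and 8306 in High libraries, 6558, 6483 and 6136 in Mid libraries and 7860, 8138 and 8442 in Neg libraries in ΔHx cells. WT Top2a counts were 7778, 7484 and 8599 in High libraries, 6092, 6378 and 7022 in Mid libraries and 7985, 8499 and 8660 in Neg libraries. Every Mid library lay below every Neg library within each genotype. Top2a fell in Mid (-0.35 ± 0.09, adjusted p = 0.00407 in ΔHx and -0.37 ± 0.09, adjusted p = 0.00277 in WT) and rose in WT High against Mid (0.29 ± 0.09, adjusted p = 0.0173). The ΔHx fall was lost with quantile normalisation. The WT rise was lost without WT High replicate 3 or WT Mid replicate 1 or 2, with an adjusted p of up to 0.0811.

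Mki67 (chr7:135689784-135716361, minus strand), the coat protein of mitotic chromosomes whose product Ki-67 is widely used to stain cycling cells, had counts of 2322, 3197 and 3338 in High libraries, 3072, 3255 and 4350 in Mid libraries and 1903, 2303 and 2817 in Neg libraries in ΔHx cells. WT Mki67 counts were 4275, 3628 and 2675 in High libraries, 3981, 3318 and 2301 in Mid libraries and 2770, 2252 and 1943 in Neg libraries. Neg held the lowest group means in both genotypes, and the groups overlapped except that all ΔHx Mid libraries were above all ΔHx Neg libraries. Mki67 rose in WT High (0.59 ± 0.21, adjusted p = 0.028) and in ΔHx Mid (0.61 ± 0.21, adjusted p = 0.0317), with 0.33 in ΔHx High and 0.44 in WT Mid. The WT High rise was lost without WT High replicate 1 or 2 or WT Neg replicate 2 or 3, with an adjusted p of up to 0.14. The rise in ΔHx Mid was lost without ΔHx Mid replicate 3 or ΔHx Neg replicate 1 or 2, with an adjusted p of up to 0.154.

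Libraries of 1 group often differed in most members at once. Replicate 3 of WT High had the highest value of its group for 29 of the 35 genes, replicate 3 of WT Mid for 28 and replicate 3 of WT Neg for 29, and replicate 3 of ΔHx High for 31. These 3 WT libraries had the lowest Rn45s share of their groups, 29.0%, 28.6% and 23.7%, against 34.9% to 44.0% in the other WT High and Mid libraries and 25.5% and 32.1% in the other WT Neg libraries. Mki67 and Cenpe had their lowest WT value in those same replicate 3 libraries in each gate, opposite to most members. In ΔHx Mid, replicate 1 was highest for 23 members and had the lowest Rn45s share of its group, 30.3%. In ΔHx Neg replicate 3 was highest for 16 and had the lowest share, 27.9%. In ΔHx High replicate 3 did not have the lowest share, with 30.7% against 27.9% in replicate 1. The part of these shares in the members' levels was not tested.

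Between genotypes no mitosis gene passed the test in any gate. In ΔHx against WT, 0 of 35 members were called in High, where 0.122% of all tested genes were, 0 in Mid, where 0.401% were, and 0 in Neg, where 0.245% were. edgeR and DESeq2 on the recovered reads also called 0 members in each gate. At an unadjusted p under 0.05 there were 3, 1 and 2 members, beside 7.86%, 7.96% and 4.17% of all genes. Members below 0 numbered 24 in High, 27 in Mid and 21 in Neg, with medians of -0.10, -0.07 and -0.02 beside 0.00, 0.00 and 0.01 for all genes. Leaving out a library moved the High median between -0.19 and 0.03 and the Mid median between -0.16 and 0.04, and the medians were above 0 without WT High replicate 3 and without WT Mid replicate 3. The 95% intervals of all members stayed within 0.81 on the log2 scale in either direction, which bounds the differences but does not show that the genotypes were alike.

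Nek2 had the lowest adjusted p of the members in each of the 3 gates and is picked out here because of these values. It had 702, 623 and 644 in ΔHx High against 798, 917 and 1072 in WT High. In Mid it had 768, 802 and 599 in ΔHx against 847, 766 and 1208 in WT. In Neg it had 984, 835 and 938 in ΔHx against 1227, 1253 and 1386 in WT. The genotypes did not overlap in High or Neg and overlapped in Mid. Its log2 changes were -0.49 in High (95% interval -0.81 to -0.17, adjusted p = 0.351), -0.36 in Mid (-0.68 to -0.04, adjusted p = 0.523) and -0.49 in Neg (-0.81 to -0.17, adjusted p = 0.494). The value was below 0 under all 17 alternatives in each gate, and the adjusted p in Neg ranged from 0.0168, in a model of the 6 Neg libraries alone, to 1.

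Other members whose genotypes did not overlap were few. In High Aurkb, Cdca8 and Cenpa were lower in every ΔHx library than in any WT library, 4 of 35 with Nek2 (5.20% of all genes were lower without overlap and 5.72% higher, and 0 members higher). Cdca8 averaged 1856 ± 34.1 in ΔHx High and 2215 ± 201 in WT High (-0.25 ± 0.09, adjusted p = 0.476). In Mid Hmmr was lower without overlap, 1 of 35 members (5.86% of all genes lower, and 5.08% higher against 0 members). In Neg Nek2 was lower and Cdc25c and Kif23 were higher (6.04% of all genes lower and 6.70% higher). Kif23 averaged 1579 ± 56.3 in ΔHx Neg and 1291 ± 114 in WT Neg (0.29 ± 0.13, adjusted p = 1).

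**Figure D4:**
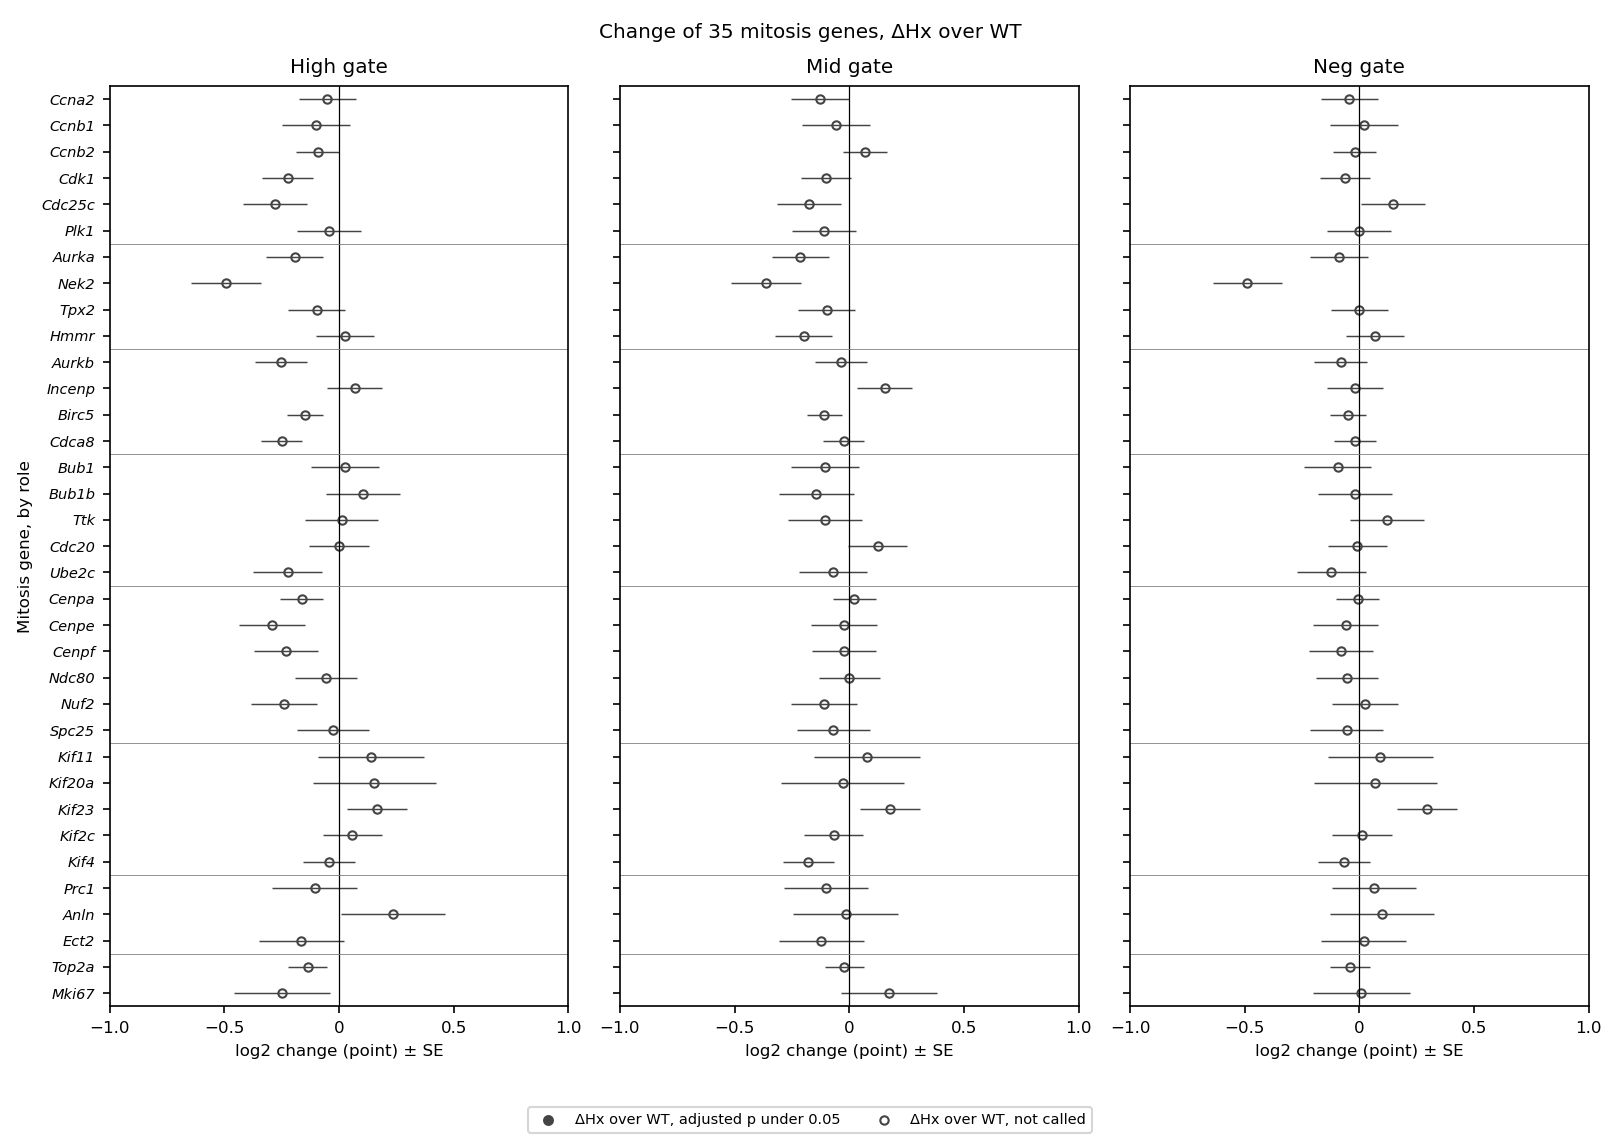
The log2 change (x axis, point, with its standard error) of each of the 35 mitosis genes (rows, by role) for ΔHx over WT in the High, Mid and Neg gates. All points are open because none passed an adjusted p of 0.05; Nek2 lies farthest below 0 in each panel, at -0.49, -0.36 and -0.49.

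The genotype effect was not found to differ between gates for any member. The test of that difference called 0 members for High against Neg, where it called 0% of all genes, 0 for Mid against Neg, where it called 0.0068%, and 0 for High against Mid, where it called 0.0136%. The lowest adjusted p among the members was 0.998, 0.999 and 0.821. At an unadjusted p under 0.05 there were 1, 0 and 0 members, the 1 being Cdc25c, beside 3.15%, 4.32% and 6.13% of all genes.

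Other genes of mitosis were taken from lists of the same pathways, for which no alternatives were run. Against Neg, the shares of all tested genes that fell were 21.1% in ΔHx High, 21.8% in WT High, 16.5% in ΔHx Mid and 15.4% in WT Mid. Of 29 other kinetochore and centromere genes 17 fell and 0 rose in ΔHx High, 12 and 0 in WT High, 16 and 1 in ΔHx Mid and 15 and 0 in WT Mid against Neg. Spc24, the partner of Spc25, averaged 1167 ± 59.3 in ΔHx Mid against 1794 ± 15.0 in ΔHx Neg (-0.62, adjusted p = 1.37e-05), and Cenpp, of the constitutive centromere network, 318 ± 37.6 in ΔHx High against 603 ± 58.0 in ΔHx Neg (-0.92, adjusted p = 1.18e-05). Among 24 other checkpoint, anaphase-promoting complex and separase genes, 10 fell and 1 rose in ΔHx High, 11 and 0 in WT High, 17 and 1 in ΔHx Mid and 12 and 0 in WT Mid. Mad2l1, the checkpoint protein Mad2, averaged 1565 ± 146 in WT High against 2482 ± 74.7 in WT Neg (-0.67, adjusted p = 1.81e-05). Fzr1, the activator that replaces Cdc20 after mitosis, was higher in High than in Mid, with 1831 ± 213 in ΔHx High against 1299 ± 111 in ΔHx Mid (0.49, adjusted p = 0.0109), and 1885 ± 272 in WT High against 1254 ± 265 in WT Mid (0.60, adjusted p = 0.00276).

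Of 29 other spindle and cytokinesis genes 9 fell and 1 rose in ΔHx High, 8 and 2 in WT High, 16 and 0 in ΔHx Mid and 11 and 0 in WT Mid against Neg. In High against Mid 5 of them rose and 0 fell in each genotype, where 13.3% of all tested genes rose in ΔHx and 12.1% in WT. Among these were Aspm, a spindle pole protein, at 1121 ± 158 in WT High against 704 ± 64.2 in WT Mid (0.67, adjusted p = 0.00173), and Racgap1, the centralspindlin partner of Kif23, at 2153 ± 46.0 in ΔHx High against 1663 ± 8.87 in ΔHx Mid (0.37, adjusted p = 0.0105). Among 18 condensin and cohesin genes 9 fell and 0 rose in ΔHx High, 7 and 2 in WT High, 8 and 1 in ΔHx Mid and 5 and 0 in WT Mid. Of 15 other mitotic kinases, phosphatases and cyclins 6 fell and 1 rose in ΔHx High, 6 and 0 in WT High, 5 and 1 in ΔHx Mid and 5 and 0 in WT Mid. Wee1, the kinase that holds Cdk1 inactive, was among them, with 871 ± 38.0 in ΔHx High against 1533 ± 128 in ΔHx Neg (-0.81, adjusted p = 1.57e-05).

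Of 12 regulators of mitotic gene transcription 7 fell and 0 rose in ΔHx High, 6 and 0 in WT High, 6 and 0 in ΔHx Mid and 5 and 0 in WT Mid. Mybl2, the B-Myb protein that joins MuvB, averaged 355 ± 32.7 in ΔHx High against 724 ± 76.0 in ΔHx Neg (-1.03, adjusted p = 9.56e-05) and 321 ± 71.9 in WT High against 656 ± 127 in WT Neg (-1.03, adjusted p = 8.49e-05). Nfyb, a subunit of the CCAAT-binding factor NF-Y, averaged 1013 ± 89.8 in ΔHx Mid against 1818 ± 137 in ΔHx Neg (-0.84, adjusted p = 4.25e-06) and 1062 ± 66.7 in WT Mid against 1677 ± 61.0 in WT Neg (-0.66, adjusted p = 6.23e-05).

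Of 36 DNA replication genes 31 fell and 0 rose in ΔHx High, with a median log2 change of -0.61, and 31 and 0 in WT High, with a median of -0.67. In Mid 26 fell and 0 rose in ΔHx (median -0.46), and 24 and 0 in WT (median -0.35). In High against Mid 9 fell and 0 rose in ΔHx and 16 fell and 0 rose in WT (medians -0.16 and -0.27), where the 35 mitosis genes had medians of 0.16 and 0.16. Of all tested genes 12.3% fell there in ΔHx and 12.4% in WT. Ccne1, cyclin E, which drives entry into S phase, averaged 1393 ± 59.1 in ΔHx High and 1302 ± 92.1 in WT High, 2112 ± 162 in ΔHx Mid and 2223 ± 250 in WT Mid, and 3515 ± 130 in ΔHx Neg and 3440 ± 254 in WT Neg. It fell in High against Neg (-1.34, adjusted p = 1.59e-09 in ΔHx and -1.40, adjusted p = 6.93e-10 in WT) and in High against Mid (-0.60, adjusted p = 9.21e-05 and -0.77, adjusted p = 6.98e-06). Rrm2, the ribonucleotide reductase subunit made in S phase, averaged 3382 ± 497 in WT High and 5048 ± 409 in WT Mid against 8511 ± 111 in WT Neg (-1.34, adjusted p = 9.51e-09 in High and -0.76, adjusted p = 2.95e-05 in Mid).

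Of 16 CDK inhibitors and quiescence genes 3 rose and 1 fell in ΔHx High, although the median of the list was -0.16, 4 rose and 1 fell in WT High, 4 and 1 in ΔHx Mid and 5 and 1 in WT Mid. Of all tested genes 21.5% rose in ΔHx High, 22.6% in WT High, 17.9% in ΔHx Mid and 17.4% in WT Mid, so the rises of the list in High are near the share of all genes. Cdkn1b, the inhibitor p27 that restrains cyclin E and A kinases, averaged 217 ± 23.8 in ΔHx High and 242 ± 54.3 in WT High, against 73.4 ± 13.4 in ΔHx Neg and 62.6 ± 16.4 in WT Neg (1.56, adjusted p = 3.66e-05 in ΔHx and 1.94, adjusted p = 2.53e-06 in WT). Btg2, an antiproliferative protein, averaged 550 ± 32.1 in ΔHx Mid and 610 ± 58.9 in WT Mid, against 254 ± 29.4 in ΔHx Neg and 207 ± 40.1 in WT Neg (1.12, adjusted p = 2.84e-05 and 1.57, adjusted p = 4.53e-07). Between genotypes 2 genes of all these lists were called, Pttg1 in Neg and Ncapd2 in Mid. The 8 lists held 29, 24, 29, 18, 15, 12, 36 and 16 genes. Of all tested genes 0.245% were called in Neg and 0.401% in Mid. Pttg1, the separase inhibitor securin, averaged 783 ± 13.2 in ΔHx Neg and 1132 ± 76.6 in WT Neg (-0.53, adjusted p = 0.0102). Ncapd2, a condensin subunit, averaged 1822 ± 185 in ΔHx Mid and 2735 ± 310 in WT Mid (-0.59, adjusted p = 0.0219).

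**Figure D5:**
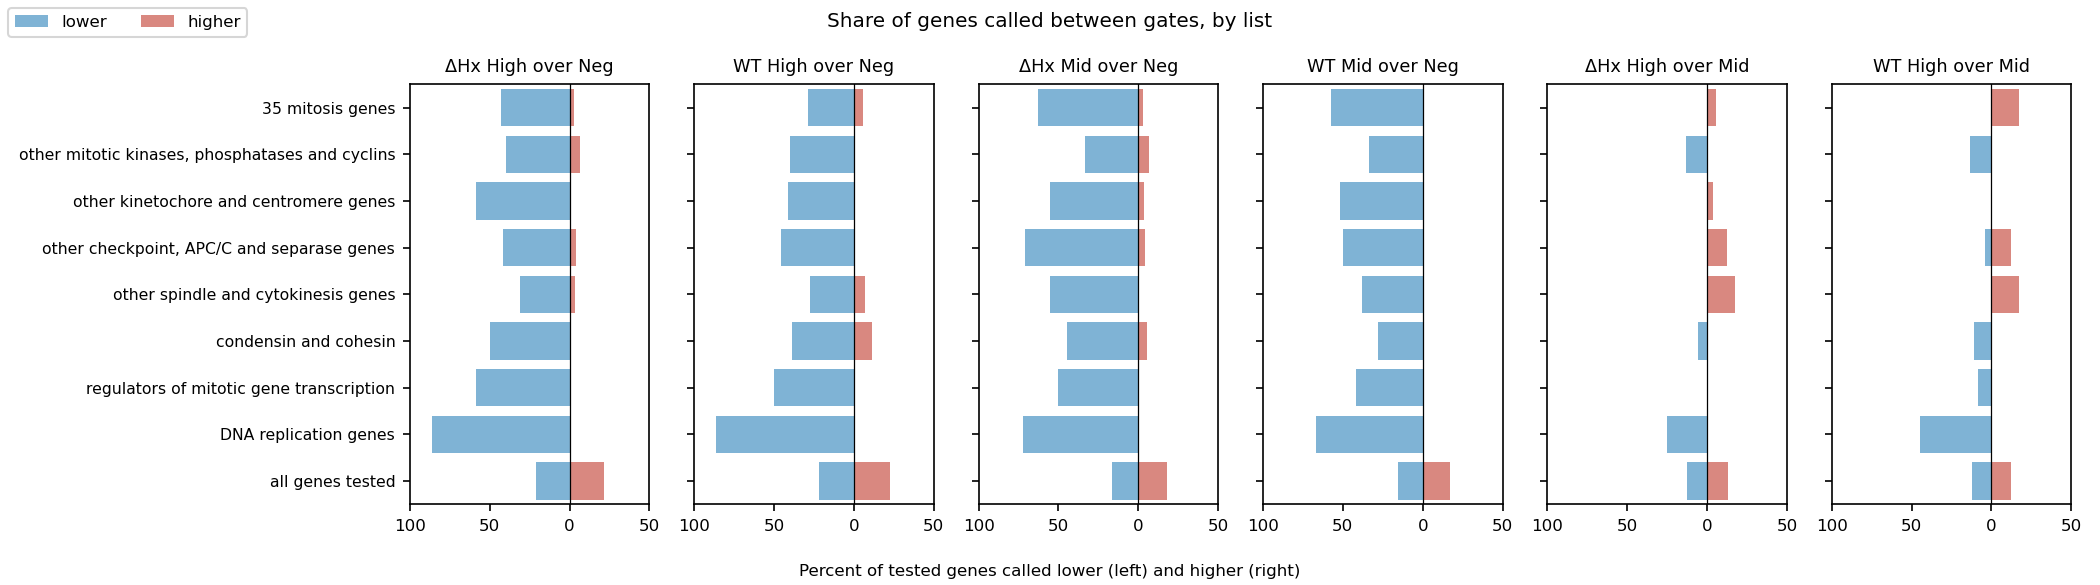
Percent of the tested genes of each list (rows) called higher (right of 0) and lower (left of 0) in the 6 comparisons between gates, with all 14711 tested genes as the bottom row. DNA replication genes extend farthest to the left in the High over Neg panels, 31 of 36 in each genotype, and also lie to the left in High over Mid, where the 35 mitosis genes extend to the right; under quantile normalisation the WT High over Neg falls of the mitosis genes drop to 3.

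The gates differed in cell type as well. The summed count of 10 node and notochord markers was 35388 to 37031 in ΔHx High and 29478 to 44493 in WT High, 6123 to 6917 in ΔHx Mid and 6368 to 8514 in WT Mid. The same sum was 2183 to 3788 in ΔHx Neg and 1996 to 3736 in WT Neg. The sum of 12 visceral endoderm markers was 44805 to 50805 in ΔHx Mid and 40910 to 49516 in WT Mid, and at most 8745 in any library of the other gates. Parietal endoderm markers, 10 genes, summed to 16391 to 22511 in ΔHx Mid and 39463 to 234659 in WT Mid. Mesoderm markers, 10 genes, summed to 741 to 1180 in High, 5445 to 12016 in Mid and 8311 to 9907 in Neg over both genotypes. Epiblast markers, 10 genes, had sums of 7907 to 9639 in ΔHx High and 7644 to 9857 in WT High, against 20754 to 24086 in ΔHx Neg and 18913 to 22704 in WT Neg. Their Mid sums were 10314 to 12834 in ΔHx and 10980 to 13167 in WT. Blood and endothelium markers, 10 genes, summed to 1499 to 2185 in ΔHx Neg and 914 to 2415 in WT Neg. Those sums were 307 to 601 in ΔHx High, 364 to 505 in WT High, 467 to 531 in ΔHx Mid and 406 to 499 in WT Mid. The next list, 12 genes, held markers of extra-embryonic ectoderm and of trophoblast giant cells, which copy their DNA without dividing. It summed to 2897 to 3091 in ΔHx Neg and 2895 to 3444 in WT Neg. The sums were 1187 to 1371 in ΔHx High, 960 to 1366 in WT High, 1078 to 1999 in ΔHx Mid and 882 to 1818 in WT Mid. Of the giant cell markers Prl2c2 was at 0 in all libraries of 5 groups and Prl3d1 in those of 3. Stress-response genes, 12 that can be induced by dissociation, summed to 8019 to 9458 in ΔHx High and 6104 to 8559 in WT High, 5832 to 9078 in ΔHx Mid and 5046 to 8213 in WT Mid. In Neg that sum was 2860 to 4668 in ΔHx Neg and 2600 to 3941 in WT Neg. The reads that did not map uniquely are given as a share of the sum of reads in genes and all lines of the read counter. They were 38.4% to 38.6% in ΔHx High and 37.7% to 38.9% in WT High, 38.5% to 39.7% in ΔHx Mid and 38.4% to 39.1% in WT Mid. In Neg they were 40.7% to 41.3% in ΔHx and 40.8% to 41.3% in WT. Rn45s took 27.9% to 37.5% of the reads in genes in ΔHx High and 29.0% to 37.9% in WT High, and 30.3% to 43.0% in ΔHx Mid and 28.6% to 44.0% in WT Mid. The Rn45s share in Neg was 27.9% to 30.1% in ΔHx and 23.7% to 32.1% in WT. The part of these sums and shares in the levels of the 35 genes was not tested.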

How the data were processed

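RNA of about 1000 sorted cells per library was amplified by SMART-Seq2, which does not mark strand, and sequenced as single 75-base reads on a NextSeq instrument, per the labels' protocols. Per the submitters' processing notes, the tools include STAR 2.5.2a, HTSeq 0.6.1, DESeq and DESeq2, with build mm10, while the gene annotation is not given in any source used here. The deposited signal values are gene read counts that the authors divided by 1 size factor per library: all 440964 values of 24498 genes were whole reads within a relative tolerance of 1e-06, 1 read being worth 0.825 to 1.37 normalised reads. The 5 lines of the read counter that name no gene were left out. As a share of the sum of reads in genes and these lines, they held 7.17% to 12.1% outside genes, 0.495% to 0.756% ambiguous and 37.7% to 41.3% not unique.

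Each group of analysed libraries follows the labels, 3 per group. limma 3.58.1 in R 4.3.3 was fitted with a mean-variance trend to log2(value + 1) of all 18 libraries as 6 group means, over genes at 10 or more in at least 3 libraries, two-sided, with Benjamini-Hochberg adjustment per comparison and calls at an adjusted p under 0.05. Fold changes on this scale understate those of low genes. The fit was tested on simulated data. On the recovered reads, edgeR 4.0.16 (quasi-likelihood test) and DESeq2 1.42.0 were alternatives. An interval of 95% uses the moderated standard error. Positions are from GENCODE M21 on mm10, promoters from RefSeq.

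The 35 genes and all lists were chosen with earlier results of these data known. Libraries are printed singly for the 2 most abundant members of each role (1 in roles of 3 or fewer), and also for Mki67 and Nek2, which were added after their values were seen. In the other lists, genes are named from the 3 called with the smallest adjusted p in a comparison. The 3 replicates are called biological; what a replicate number stands for is not given, and p-values measure the spread between these libraries.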

Additional observations from a re-analysis of the deposited data

How the results depend on the processing

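No called member changed direction under an alternative. Counting each call of a member in each alternative other than the leaving out of 1 library, 799 were kept and 70 lost, and with 1 library left out 358 were kept and 116 lost; the cause was not tested. With quantile normalisation, WT High against Neg gave 4 rises and 3 falls, ΔHx High against Neg 6 falls and a median of -0.14, ΔHx Mid against Neg a median of -0.32, and High against Mid 15 rises in WT and 9 in ΔHx. With equal totals without Rn45s, the median of all genes moved to 0.13 in WT and 0.11 in ΔHx for High against Neg; relative to it the members' medians were -0.23 and -0.32. Under the same scaling WT High against Neg gave 6 falls, ΔHx Mid against Neg a median of -0.34, and High against Mid 12 rises in WT and 5 in ΔHx. Without a filter, the rises in ΔHx numbered 0 both in Mid against Neg and in High against Mid. Models of the compared groups alone gave 2 rises in WT and 5 in ΔHx for High against Mid, and 1 fall, Nek2, in ΔHx against WT Neg. DESeq2 gave 4 rises and 1 fall, Birc5, in ΔHx High against Mid. Without both libraries that stood apart, an alternative chosen after seeing the data, WT Mid against Neg gave 13 falls, ΔHx High against Neg 0 rises and 23 falls, and High against Mid 3 rises in WT and 1 in ΔHx.

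Leaving out 1 library at a time gave 1 to 2 rises and 5 to 17 falls in WT High against Neg, 0 to 1 and 10 to 24 in WT Mid against Neg, and 1 to 12 rises and 0 to 1 falls in WT High against Mid. In ΔHx it gave 0 to 2 rises and 10 to 21 falls in High against Neg, 0 to 1 and 16 to 22 in Mid against Neg, with medians of -0.48 to -0.42, and 0 to 4 rises and 0 falls in High against Mid. Falls among all tested genes in these fits were 2681 to 3103 in WT High against Neg (3201 in the main fit). They were 1596 to 2402 in WT Mid (2267), 2576 to 2871 in ΔHx High (3103) and 1760 to 2277 in ΔHx Mid (2421). WT High against Mid had 1 rise without WT High replicate 3, 2 without WT Mid replicate 1 or without WT Mid replicate 2, and 12 without WT Mid replicate 3; ΔHx High against Mid had 0 without ΔHx High replicate 3 or ΔHx Mid replicate 2, 1 without ΔHx High replicate 2 or ΔHx Mid replicate 3, and 4 without ΔHx High replicate 1. All tested genes in WT High against Mid had 1438 rises without WT High replicate 3 and 1761 without WT Mid replicate 3, against 1774 in the main fit. For ΔHx the rises were 1654 without ΔHx High replicate 3 and 1520 without ΔHx High replicate 1, against 1959. Genotype comparisons and their differences between gates stayed at 0 member calls in the fits that left out 1 library.

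Of 45 pairs of same-numbered libraries from different groups, 5 had a correlation of their deviations from the group means over 0.1. These were 5 of the 18 pairs within a genotype and 0 of the 27 across genotypes. What a replicate number stands for is not given, so the numbers were not taken as pairs. Within a genotype all 18 such correlations were positive, 0.016 to 0.29, and in 18 of 18 the library matched its own number best, against 4 of 27 across genotypes, where the range was -0.17 to 0.082. This is a hint from the data, not the design. Pairing within each genotype was not modelled. If the numbers mark a shared sort, the tests between gates counted what its libraries share as spread. Leaving out 1 library would then also break a set of matched libraries. The part of this in the calls lost without 1 library was not tested. The replicate block that was run gives both genotypes the same replicate effects, so it does not stand for such pairing. With this block all calls in the comparisons between gates were kept. It gave 1 rise and 17 falls in ΔHx High against Neg, 2 and 14 in WT High against Neg, 1 and 24 in ΔHx Mid against Neg and 0 and 21 in WT Mid against Neg. High against Mid had 5 rises in ΔHx and 9 in WT. The added falls were Plk1 and Ube2c in ΔHx High, Ccnb1, Plk1, Nuf2 and Anln in WT High, Spc25 and Anln in ΔHx Mid and Prc1 in WT Mid; the added rises in High against Mid were Plk1, Kif23 and Prc1 in ΔHx and Ube2c, Kif23 and Prc1 in WT. Libraries held 7584863 to 11999661 reads in genes without Rn45s, and the median standard error of a member's difference between genotypes was 0.14 on the log2 scale.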
